A study of Rattus norvegicus with 35 samples.

Results

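The genes described here encode the receptors through which retinal neurons sense glutamate, GABA and glycine. They were chosen by name, not by level, as every gene whose single platform symbol is that of a subunit of an AMPA, kainate, delta or NMDA receptor, a metabotropic glutamate receptor, a GABA-A, GABA-rho or GABA-B receptor or a glycine receptor. This gave 46 genes of the 14217 genes with a single symbol on the array. Each gene was read from the probe set with the highest mean over all 35 arrays.

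The retinas were those of adult female Sprague-Dawley rats. The left optic nerve was cut close to the eye (intraorbital nerve transection, IONT) or crushed further back (intraorbital nerve crush, IONC), and naïve animals had no surgery. IONT retinas were taken at 12 h, 48 h and 7 d (3 arrays each) and at 24 h, 3 d and 15 d (2 arrays each), IONC retinas at 5 of these times, all but 15 d (3 arrays each), and 5 arrays were naïve. No group had sham surgery, so lesion and surgery cannot be told apart. Each array held RNA pooled from 4 retinas of different rats, so the spread between arrays is that between pools. The question was which sequences of the whole retina each lesion regulates over time, here asked of the transmitter receptors.

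Glutamate is the transmitter of photoreceptors, bipolar cells and retinal ganglion cells (RGCs), whose axons form the optic nerve. ON bipolar cells sense it through the metabotropic receptor mGluR6, and OFF bipolar cells, horizontal cells, amacrine cells and RGCs through AMPA and kainate channels. RGCs and amacrine cells also carry NMDA channels. GABA and glycine are the inhibitory transmitters of amacrine cells. GABA acts through the GABA-A and GABA-rho chloride channels and the G-protein-coupled GABA-B receptor, and glycine through its own chloride channel. The receptors are thus spread over most neuron types of the retina, of which RGCs are a small part. In RNA of the whole retina, fewer cells of a type and less RNA per cell cannot be told apart.

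Values are log2 signals, so a difference of 1 is a doubling. A signal above 4 on at least 2 arrays was found for 23 of the 46 receptor genes, a limit close to the median of all probe sets. Among these brighter genes were 3 of 4 AMPA subunits (Gria2, Gria3, Gria4), 2 of 7 NMDA subunits (Grin1, Grin2a), 3 of 5 kainate subunits (Grik1, Grik2, Grik5) and 4 of 7 metabotropic glutamate receptors (Grm2, Grm6, Grm7, Grm8). Of the inhibitory receptors they held 4 of 13 GABA-A subunits (Gabra2, Gabrb1, Gabrb2, Gabrd), all 3 GABA-rho subunits (Gabrr1, Gabrr2, Gabrr3), both GABA-B subunits (Gabbr1, Gabbr2) and 2 of 4 glycine receptor subunits (Glra2, Glrb). Gabrr3 passed 4 on only 7 arrays, all of naïve replicates 4 and 5 or of IONT 24 h, 3 d and 15 d. On all others it read 2.64 to 3.66, yet it is counted among the 23 in every comparison. The other 23 genes, among them Grid1 (a delta subunit), Grin2b, Gria1, Glra1 and Grm5, lay at low signal on nearly all arrays.

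The arrays fell into 2 sets that the labels do not name. The 3′ signal of the actin control exceeded its 5′ signal by 1.53 to 1.93 log2 units on the 27 arrays of naïve replicates 1 to 3, IONT 12 h, 48 h and 7 d and all IONC groups. On the 8 arrays of naïve replicates 4 and 5 and of IONT 24 h, 3 d and 15 d it did so by 2.61 to 3.65. The median correlation of an array with all other arrays of both sets was 0.986 to 0.992 in the first set and 0.962 to 0.970 in the second. As the first set holds most arrays, these medians mainly show how close an array was to that set. They do not measure the agreement within the second set. Each injured group was therefore compared with the naïve arrays of its own set only. IONC 12 h replicate 2 stood apart from all others (median correlation 0.871), and results are also given without it.

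The receptor genes showed this split too. Between naïve replicates 4 and 5 and naïve replicates 1 to 3, 17 of the 23 brighter genes did not overlap, 9 being higher and 8 lower in the later-numbered pair, and the difference passed 0.5 log2 units for 15 of the 23. Of the 10097 genes of the array above the same signal limit, 67% did not overlap and 32.9% differed by over 0.5. The share without overlap was near that of the receptor genes, but differences over 0.5 were more common among the receptor genes. Grin2a had the widest gap of these genes, with 5.88, 6.08 and 6.39 in naïve replicates 1 to 3 and 3.52 and 3.88 in replicates 4 and 5. Gria2 went the other way, with 8.36 to 8.56 against 9.27 and 9.68. For 7 of the 23 genes, Grin2a among them, this difference between uninjured retinas was larger than every change after injury. For this reason every change below was measured within an array set.

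The rule for a call asked for an adjusted p under 0.01 over all probe sets, log odds (B) above 0 and at least 1.2-fold. By this rule 43 of the 46 genes were not called in any of the 11 comparisons with naïve retinas. Of all genes 9.04% were called in at least 1 of them, or 21.4% without IONC 12 h replicate 2, a fit in which 3 of the 46 were called. The 3 that were called were Gria2 and Grin2a, both lower at 48 h after IONC, and Grm2, higher at 15 d after IONT. At IONC 48 h these 2 of 46 receptor genes (4.35%) stood beside 1.54% of all 14217 genes called, or 0.886% called lower. At IONT 15 d the 1 of 46 (2.17%) stood beside 1.81% called and 1.44% called higher. Without IONC 12 h replicate 2 the receptor counts at both times were the same, but the shares of all genes called rose to 6.18% and 4.51%, above those of the receptors. With so few calls, neither share can be read as a departure from the background.

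Over the other 9 comparisons limma called no receptor gene. Of all genes it called 1.29% (12 h), 2.64% (48 h) and 1.2% (7 d) after IONT in the first array set and 0.499% (24 h) and 0.795% (3 d) in the second. After IONC the shares were 5.22% (12 h), 1.04% (24 h), 0.394% (3 d) and 0.689% (7 d). At these 9 times 1 to 17 of the 46 receptor genes had an unadjusted p under 0.05, the 17 being at IONC 12 h. Without IONC 12 h replicate 2 that count at 12 h was 4, while it rose from 3 to 17 at IONT 7 d, from 3 to 17 at IONC 3 d and from 4 to 15 at IONC 7 d. The share of all genes at this cutoff was not taken, so these counts have no background and nothing is read from them. They also take in the receptor genes at low signal.

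**Figure D1:**
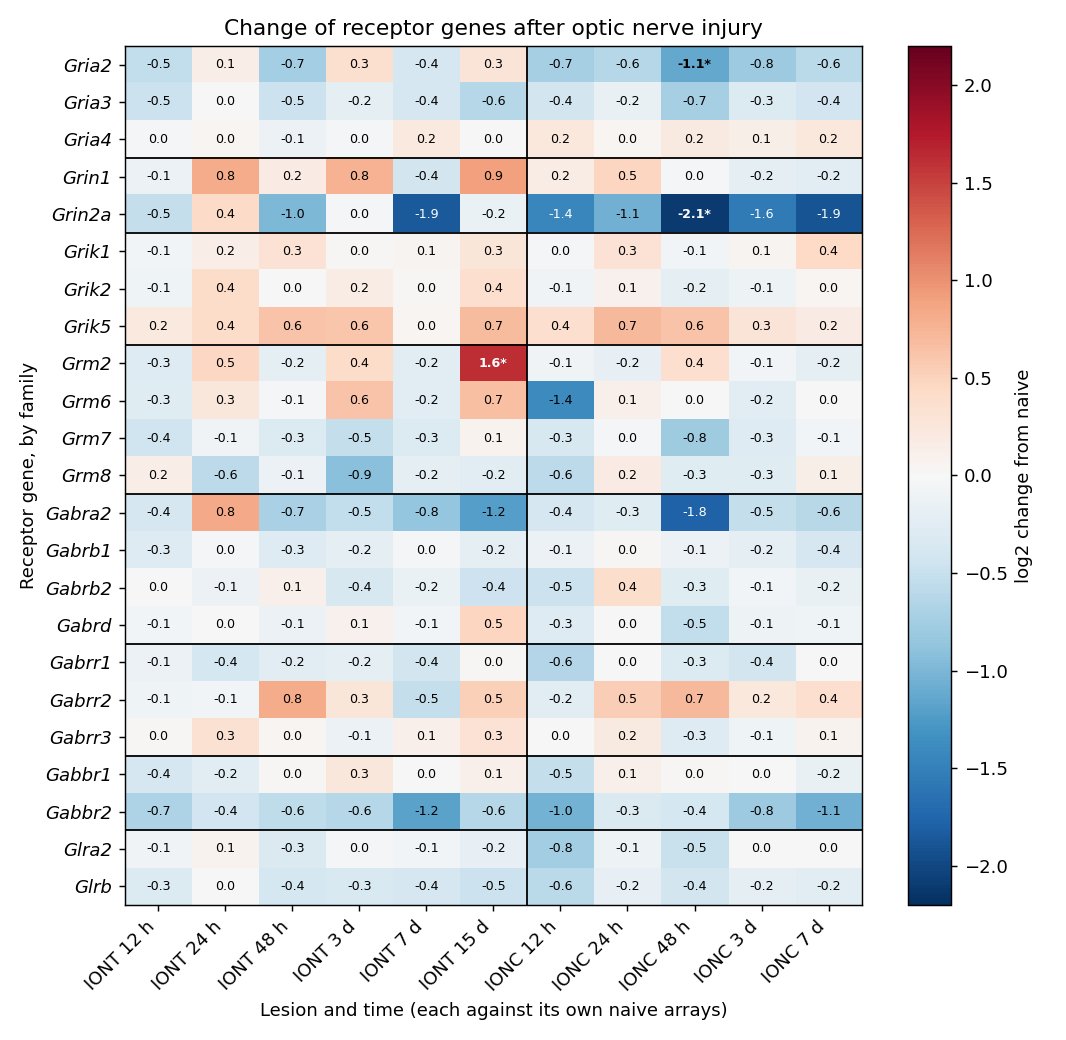
Log2 change from naïve of the 23 brighter receptor genes (rows, grouped by family) at each lesion and time (columns), each against the naïve arrays of its own set. Blue is lower and red higher, an asterisk marks a call on the gene's brightest probe set, and the 3 calls are Gria2 and Grin2a at IONC 48 h and Grm2 at IONT 15 d.

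The median change of the 23 brighter receptor genes lay between −0.37 (IONC 12 h) and 0.08 (IONT 15 d) log2 units. Over the 10097 genes of the array that passed the same signal limit, the medians of the same comparisons were −0.35 and 0.15. Without IONC 12 h replicate 2 the IONC 12 h medians were −0.07 for the receptors and 0.01 for all such genes. At IONT 7 d the receptor median was −0.23 (17 of 23 genes below naïve) and that of all such genes −0.07. At IONC 48 h the values were −0.27 (18 of 23 below) and 0.01. In the other comparisons the count below naïve ran from 9 (IONT 24 h) to 20 (IONT 12 h) of 23. The share of all such genes below naïve was not counted, and comparisons within an array set share their naïve arrays. How much the data could show differed between comparisons. The 95% interval of the change lay within 1 log2 unit of 0 for 17 of the 23 genes at IONT 12 h, IONT 7 d and IONC 3 d, for 16 at IONC 7 d, but for only 8 at IONT 15 d, where 2 arrays stood against 2. For the genes inside that range a doubling or a halving lay outside the interval.

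**Figure D2:**
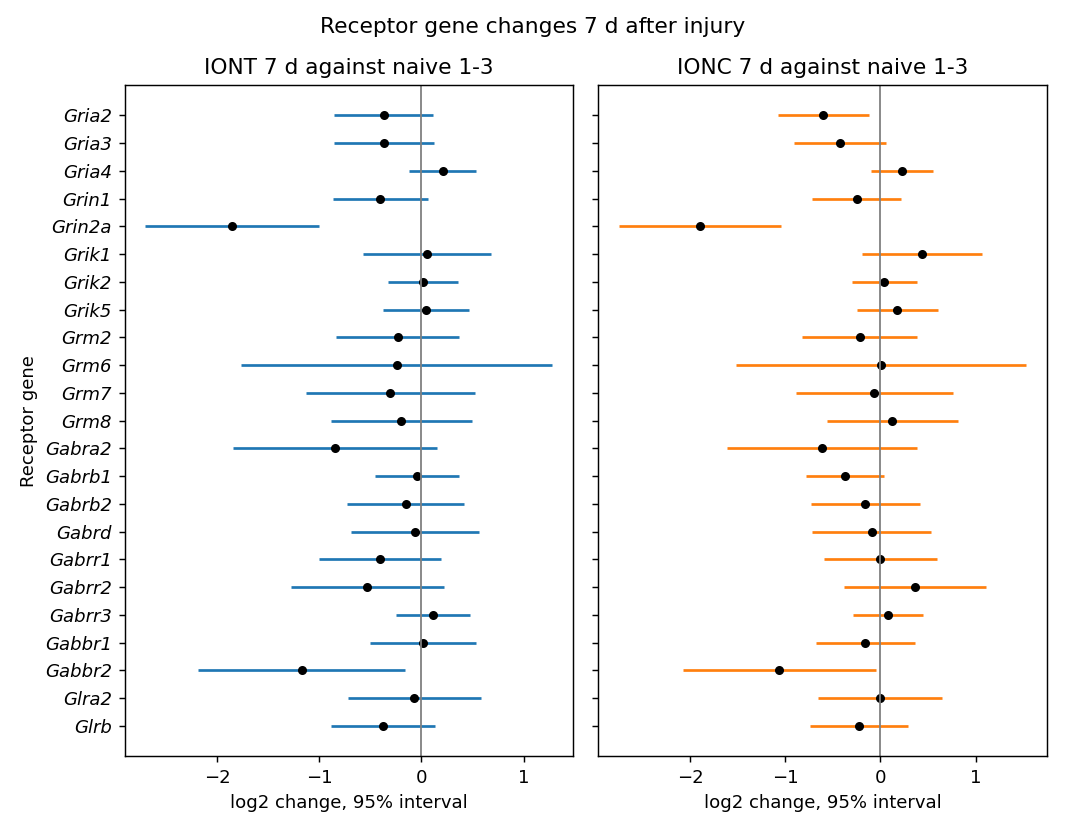
Log2 change with its 95% interval of the 23 brighter receptor genes 7 d after IONT (left) and IONC (right), each from 3 arrays against naïve replicates 1 to 3. Most points lie near 0, and Grin2a is the lowest on both sides, at −1.85 and −1.90.

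Of the ionotropic glutamate receptors, Grin2a changed most. It encodes GluN2A, a glutamate-binding subunit of the NMDA receptor, a calcium-permeable channel. In naïve replicates 1 to 3 its signal was 5.88 to 6.39, and at 48 h after IONC it was 3.51, 3.74 and 4.80. All 3 injured arrays were below all 3 naïve ones, and the drop was 4.29-fold (log2 change −2.10, SE 0.41, adjusted p = 0.00386). At 7 d the signals were 4.43, 4.40 and 3.83 after IONC and 4.63, 3.76 and 4.40 after IONT. These 6 arrays too lay below every naïve array of the set, yet the changes (−1.90, adjusted p = 0.0167, and −1.85, adjusted p = 0.0139) were not called. IONC 12 h replicate 2 enters neither comparison but is part of the fit, and its Grin2a signal of 4.22 lay near the 4.29 of replicate 1. Without it both were called (adjusted p = 0.00713 and 0.00364). The shares of all genes called were then 2.98% at IONC 7 d and 6.02% at IONT 7 d, against 0.689% and 1.2% with all arrays.

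The remaining times of the same array set gave Grin2a changes of −0.53 (IONT 12 h), −0.99 (IONT 48 h), −1.43 (IONC 12 h), −1.06 (IONC 24 h) and −1.56 (IONC 3 d), none called. The groups overlapped at IONT 12 h and at IONC 24 h, where 1 array of 3 read 6.12. In the second set, where naïve arrays read 3.52 and 3.88, the injured arrays read 3.51 to 4.40 and the changes were 0.42, −0.02 and −0.15. These naïve signals were already below 4, so a drop like that of the first set could hardly have been seen there. The other probe sets of Grin2a read 2.53 and 2.50 on average and changed by 0.04 and 0.05 at IONC 48 h, so the change rests on a single probe set.

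Grin1, the subunit present in every NMDA receptor, was not called at any time. Its signal was 6.73 to 6.93 in naïve replicates 1 to 3, and the changes in that set ran from −0.40 (IONT 7 d) to 0.47 (IONC 24 h). In the second set naïve replicate 4 read 5.97 and replicate 5 read 6.69, while the IONT 24 h, 3 d and 15 d arrays read 7.01 to 7.30. All 6 lay above both naïve arrays, by 0.82, 0.76 and 0.90 log2 units, with adjusted p from 0.0796 to 0.206. A second probe set of Grin1, at a mean of 2.59, came closer to a call at IONT 15 d (change 1.315, adjusted p = 0.0153). There it read 5.32 and 3.26 against 2.95 and 3.00, so the change rests mainly on replicate 1. The other 5 NMDA subunits (Grin2b, Grin2c, Grin2d, Grin3a and Grin3b) were at low signal and not called.

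Gria2 encodes GluA2, the AMPA subunit whose presence keeps calcium out of the channel. Its signal was 8.36, 8.41 and 8.56 in naïve replicates 1 to 3 and 6.61, 7.71 and 7.62 at 48 h after IONC. No injured array reached the naïve range, and the drop was 2.19-fold (log2 change −1.13, SE 0.23, adjusted p = 0.00599). In each of the other 7 comparisons of this set all injured arrays were also below all naïve ones, with changes of −0.37 to −0.79 that were not called. In the second set the signs were positive (0.14, 0.35 and 0.28), with 9.52 to 9.94 after IONT against 9.27 and 9.68. A second probe set of Gria2 read lower than naïve in all 8 comparisons of the first set, by 0.16 to 0.75, and by 0.37 at IONC 48 h (adjusted p = 0.898), so the call holds for 1 of its 2 probe sets.

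IONC 48 h replicate 1 was low for several receptor genes at once, reading 6.61 for Gria2, 3.00 for Gabra2 and 3.51 for Grin2a. Without it the Gria2 change was −0.78 (adjusted p = 0.0693) and that of Grin2a −1.85 (adjusted p = 0.0426), and neither was called. Leaving out any of naïve replicates 1 to 3 likewise ended both calls, with changes of −1.07 to −1.17 for Gria2 and −1.96 to −2.22 for Grin2a. The direction and rough size held in these fits, and the call did not.

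**Figure D3:**
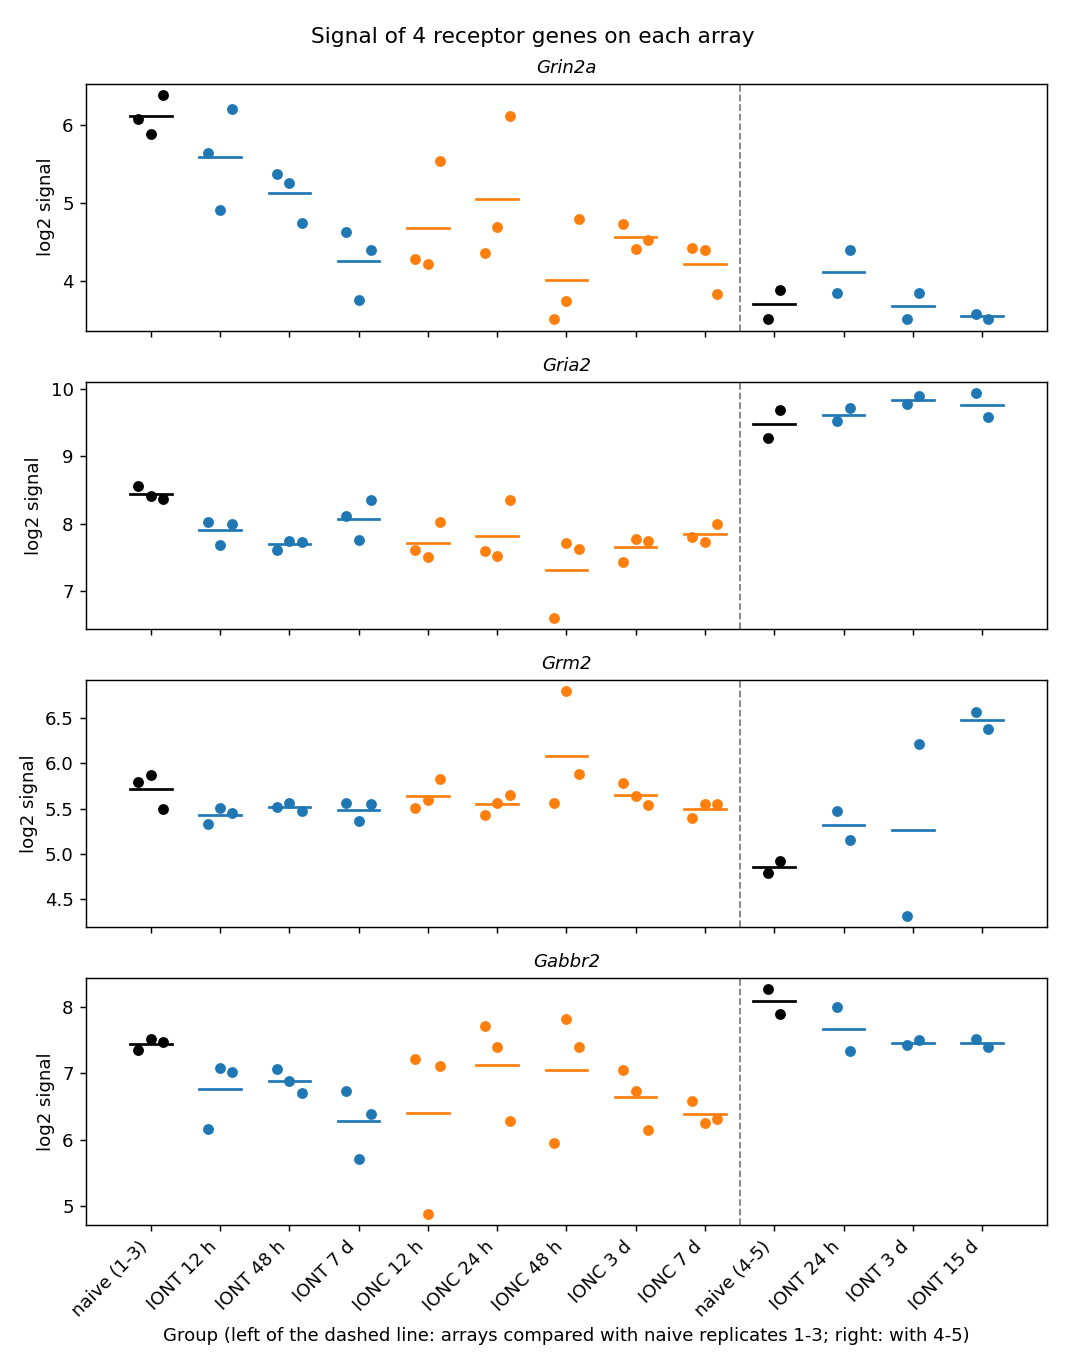
Log2 signal of Grin2a, Gria2, Grm2 and Gabbr2 on each of the 35 arrays (points) with group means (bars), in black for naïve, blue for IONT and orange for IONC. The dashed line parts the 2 array sets, and the step in naïve level across it (for Grin2a from 5.88 to 6.39 down to 3.52 and 3.88) is as plain as the changes after injury.

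Of the other AMPA subunits, Gria3 changed by −0.73 to 0.00 and Gria4 by −0.13 to 0.24, with no call. Grik5, a subunit of kainate receptors that raises their affinity for glutamate, was the kainate gene with the largest mean change. It was above naïve in all 11 comparisons, by 0.04 to 0.71, with the highest value at IONC 24 h (6.44 to 6.80 against a naïve mean of 5.98 ± 0.03, SD, n = 3). These arrays did not overlap, but the adjusted p was 0.0863 and no time was called. Grik1 and Grik2 changed by −0.20 to 0.44. Grid1 stayed at a signal near 2 throughout, with changes of −0.05 to 0.07.

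Among the metabotropic glutamate receptors, Grm2 gave the only call that was higher after injury. It encodes mGluR2, a receptor that lowers cAMP and is known in the retina from starburst amacrine cells. Its signal was 4.79 and 4.92 in naïve replicates 4 and 5 and 6.58 and 6.39 at 15 d after IONT, 3.09-fold higher (log2 change 1.63, SE 0.36, adjusted p = 0.00792). The 2 IONT 3 d arrays were far apart, at 4.31 and 6.22, and the IONT 24 h arrays read 5.48 and 5.15. In the first set Grm2 moved little, with changes of −0.29 to 0.37. The call was within a narrow margin of the threshold. It was lost on leaving out naïve replicate 4 (adjusted p = 0.0831), naïve replicate 5 (adjusted p = 0.0379), either 15 d array or many of the arrays that enter neither group.

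Grm6, the receptor of ON bipolar cells, read 7.23 to 7.29 in naïve replicates 1 to 3, and its changes in that set were −0.27 to 0.12 at all times but IONC 12 h. There the value was −1.40, with 7.45 and 7.72 on 2 arrays and 2.39 on replicate 2, and no call was made. In the second set all 6 IONT arrays (8.41 to 8.83) lay above the naïve pair (8.31 and 8.00), by 0.26 to 0.65 log2 units, again with no call. Replicate 2 also enters the pooled spread, and the 95% interval of Grm6 at IONT 7 d ran from −1.77 to 1.28. Grm3, the family member with the largest mean change, never passed 4. It read 3.16 to 3.63 in naïve replicates 1 to 3, mostly near 2.7 after injury, and changed by −0.65 to 0.00 with no call. Grm7 and Grm8 changed by −0.92 to 0.17.

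On the brightest probe set of each gene, no receptor of GABA or glycine was called at any time. By that probe set the gene closest to a call was Gabra2, which encodes the α2 subunit of the GABA-A channel. It read 6.31, 6.63 and 6.81 in naïve replicates 1 to 3 and 3.00, 5.69 and 5.72 at 48 h after IONC, a change of −1.78 (adjusted p = 0.0425). Without the array at 3.00 the change was −0.88 (adjusted p = 0.35). The change was negative in 10 of the 11 comparisons and 0.83 at IONT 24 h, where 7.50 and 7.49 stood above the naïve 6.49 and 6.84. The other 3 GABA-A subunits of the brighter group, Gabrb1, Gabrb2 and Gabrd, changed by −0.54 to 0.48 on their brightest probe sets, and the 9 GABA-A subunits at low signal were not called either.

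Other, dimmer probe sets gave calls for 3 GABA receptor genes, named here after their values were seen. The 46 genes had 78 probe sets, and of the 32 that were not the brightest of their gene 1 was called at IONC 48 h and 2 at IONT 15 d. This made 3 of 78 probe sets at each time (3.85%), beside 1.36% and 1.87% of all 31042 probe sets. Without IONC 12 h replicate 2 the shares of all probe sets were 4.83% and 4.07%, so no departure from the background is read from these few calls. Gabrb2, a β subunit of the GABA-A channel, read 4.21, 5.06 and 4.73 on its dimmer probe set in naïve replicates 1 to 3 and 3.17, 2.64 and 3.46 at IONC 48 h. The groups did not overlap and the change was −1.58 (adjusted p = 0.00624), while its brightest probe set, at a mean of 8.94, changed by −0.27. Gabrd, the δ subunit of GABA-A channels outside synapses, read 3.95 and 4.14 in naïve replicates 4 and 5 and 5.75 and 5.38 at IONT 15 d. This was a rise of 1.52 (adjusted p = 0.00112), against 0.48 and no call on the brightest probe set. The third, of Gabbr1, read 3.53 and 3.54 in the same naïve arrays and 2.40 and 3.28 at IONT 15 d, a change of −0.70 (adjusted p = 0.0085) that was −0.26 without IONT 15 d replicate 1. Its brightest probe set changed by 0.11 there. For none of these 3 genes did the brightest probe set show a change of like size.

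Gabbr2 encodes the subunit of the GABA-B receptor that couples to G proteins, and it was lower than naïve in all 11 comparisons, by 0.31 to 1.17 log2 units. At 7 d it read 6.73, 5.70 and 6.39 after IONT and 6.59, 6.26 and 6.31 after IONC, against 7.35, 7.51 and 7.48 in naïve retinas. The 6 arrays were all below the naïve range, and the changes of −1.17 and −1.06 had 95% intervals of −2.18 to −0.16 and −2.08 to −0.05. Neither was called (adjusted p = 0.337 and 0.641, or 0.0267 and 0.0645 without IONC 12 h replicate 2, which read 4.89). Comparisons within an array set share their naïve arrays, so the common sign over times is not independent evidence. Gabbr1, the GABA-binding partner, changed by −0.52 to 0.26 on its brightest probe set. The −0.52 was at IONC 12 h and holds the 8.15 of replicate 2, beside 9.38 and 9.60.

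The GABA-rho subunits form the slow GABA channels typical of bipolar cells. Gabrr1 read 9.27 to 9.51 in naïve replicates 1 to 3 and changed by −0.64 to 0.02. The −0.64 was at IONC 12 h and holds the 7.58 of replicate 2, beside 9.18 and 9.42. Elsewhere the lowest change was −0.41 (IONC 3 d). Gabrr2 was higher at IONT 48 h, with 8.09, 8.37 and 8.17 against 7.41, 7.30 and 7.49, but the change of 0.81 was not called (adjusted p = 0.351). At 7 d it was below naïve after IONT (−0.53) and above after IONC (0.36). The difference of 0.89 had a 95% interval of 0.15 to 1.64 and an adjusted p of 1.0, the 3 IONC arrays (7.73 to 7.79) lying above the 3 IONT arrays (6.67 to 6.99). Gabrr3, which was below 4 on every array of the first set, changed by −0.29 to 0.33.

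Of the glycine receptor, Glrb, the β subunit that anchors the channel at synapses, was the member with the largest mean change. It read 9.06 to 9.19 in naïve replicates 1 to 3 and changed by −0.59 to 0.02, with no call. Its value at IONC 12 h holds the 7.60 of replicate 2. A second probe set of Glrb, at a mean of 7.41, was below naïve in all 11 comparisons and came closer to a call, with 6.28, 6.83 and 7.57 at IONC 48 h against 8.17, 8.26 and 7.85 (change −1.20, adjusted p = 0.0278). Glra2 changed by −0.76 to 0.08 and likewise had its lowest value at IONC 12 h. Glra1, the adult α subunit, stayed between 2.39 and 3.75, with the highest signal on IONC 12 h replicate 2, and changed by −0.13 to 0.42.

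The 2 lesions were compared directly at the 5 shared times, at 24 h and 3 d as the difference of the changes from each set's own naïve arrays. None of the 46 receptor genes differed by limma at any of them. Of all genes 1.62% differed at 12 h, and later the share was 0.12% (24 h), 0.148% (48 h), 0.0492% (3 d) and 0.0563% (7 d). At an unadjusted p under 0.05 there were 11 receptor genes at 12 h, 3 at each of the next 3 times and 1 at 7 d. Without IONC 12 h replicate 2 the 12 h count fell to 3 and the 3 d count rose to 16, and the others were 2 (24 h), 4 (48 h) and 2 (7 d). These counts include receptor genes at low signal. All genes were not counted at this cutoff, so no difference between the lesions is read from them. Grin2a had differences (IONC minus IONT) of −0.91 (12 h), −1.48 (24 h), −1.11 (48 h) and −1.53 (3 d), and of −0.04 at 7 d, where both groups read much alike. Without IONC 12 h replicate 2 the 12 h difference was −0.68 (adjusted p = 0.73). At 24 h and 3 d the IONT arrays were of the second set, whose naïve arrays already read 3.52 and 3.88. A drop after IONT could hardly have been seen there, so these 2 differences do not compare the lesions. The 95% intervals of the Grin2a differences were −1.96 to −0.26 at 48 h and −0.89 to 0.81 at 7 d. With all arrays the adjusted p values were 0.119 to 1.0.

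Of 31 measured scaffold and auxiliary subunit genes, which work beside the receptors, 1 rose and 1 fell at any time, beside the 9.04% of all genes called in at least 1 comparison. Dlg1 (SAP97), a scaffold that binds AMPA and NMDA subunits, rose at 12 h and 48 h after IONT (1.63 and 1.15) and at 24 h after IONC (0.93, adjusted p = 0.00924). Cacng3, an AMPA receptor auxiliary subunit, fell at IONC 12 h (−1.17), a call that ended without replicate 2 (−0.70, adjusted p = 0.0605). Of 17 measured genes of transmitter synthesis and transport, Glul, the glutamine synthetase of Müller glia, fell at 12 h and 48 h after IONT (−1.06 and −0.88) and at 12 h after IONC (−0.81, or −0.52 and not called without replicate 2). Abat, which breaks down GABA, rose at IONT 3 d (0.55), and Shmt2, which makes glycine, rose at IONT 15 d (0.83).

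The largest changes of that list were those of Slc17a6, the vesicular glutamate transporter of RGCs. It fell by 4.13 log2 units at 7 d and by 6.38 at 15 d after IONT, and by 2.76 at 7 d after IONC. It is also an RGC marker, and the RGC markers as a list stood well apart from the receptors. At 7 d, 9 of 12 measured RGC markers were lower after each lesion, Nrn1 and Nefh among them, with median changes of −2.90 after IONT and −2.56 after IONC. Of all genes 0.957% were called lower at IONT 7 d and 0.443% at IONC 7 d. At 15 d after IONT 9 of 12 were lower, with a median of −3.98. By the same rule 0 of the 46 receptor genes were lower, beside 0.366% of all genes, so the 0 is near the background. An unadjusted p under 0.05 in either direction was found for 7 receptor genes, a cutoff at which all genes were not counted. Without IONC 12 h replicate 2 the 7 became 17 and still 0 receptor genes were lower, and median centring of the arrays gave 4 lower ones. At IONC 48 h, where Gria2 and Grin2a were called, 6 of 12 RGC markers were lower (median −1.27), beside 0.886% of all genes.

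**Figure D4:**
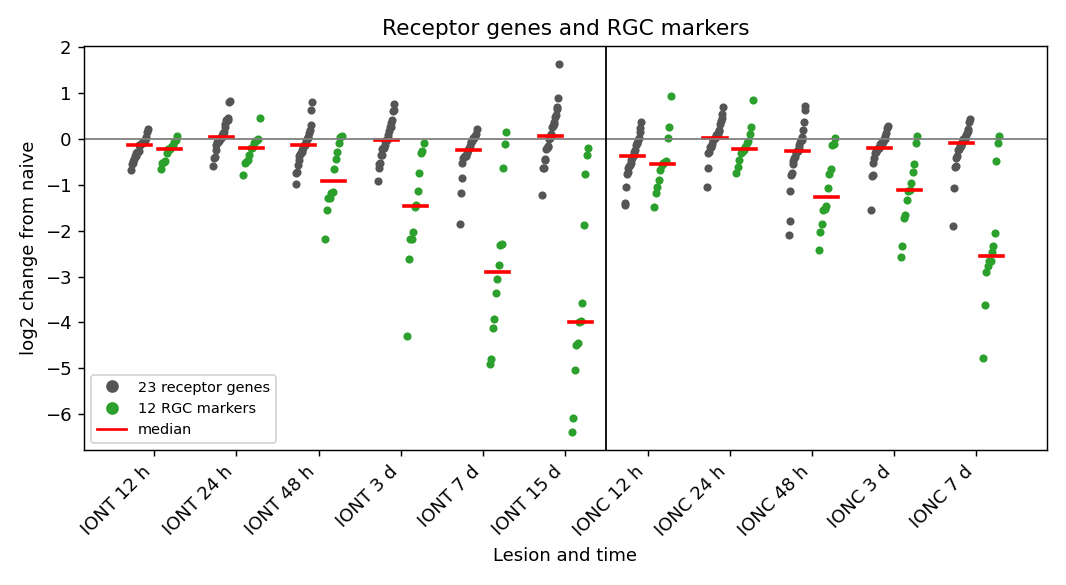
Log2 change from naïve of the 23 brighter receptor genes (grey) and of 12 RGC markers (green) at each lesion and time, 1 point a gene, with the median of each in red. The receptor medians lie between −0.37 and 0.08, the −0.37 at IONC 12 h being −0.07 without replicate 2, and the RGC marker medians reach −2.90 at IONT 7 d and −3.98 at IONT 15 d.

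None of 12 amacrine or 5 horizontal cell markers was called in any comparison with all arrays (1 of each list was, Calb2 and Lhx1, without IONC 12 h replicate 2), with amacrine medians of −0.15 at IONT 7 d and −0.17 at IONC 48 h. Of 6 bipolar markers, 1 was lower at some time after IONT and 2 after IONC, of 8 rod markers 3 and 5, and of 7 cone markers 2 and 3. Of all genes 2.63% were lower at some time after IONT and 4.36% after IONC. At IONC 48 h the 9 microglia and macrophage markers had a median change of 2.04 (3 higher) and the 5 astrocyte and reactive glia markers of 4.06 (3 higher), beside the lower Gria2 and Grin2a. Of all genes 0.654% were called higher at that time. The part of these cell types, and of the RGCs, in the receptor values was not tested.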

How the data were processed

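The deposited values are log2 signals per probe set of Affymetrix RAE230.2 arrays, which the authors made from scanner files with GCRMA (background by probe sequence, quantile normalization, probe summary). Their software versions, and whether GCRMA was run once over all arrays or per set, are not stated. GCRMA shrinks low signals, so changes of dim genes are understated. The table held 31099 probe sets. The 57 controls were left out and 31042 were tested, of which 20826 carried 1 gene symbol in the platform annotation, 436 several and 9780 none. All 46 receptor genes (78 probe sets) matched RefSeq. Numbers of arrays limit the precision.

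limma 3.58.1 (R 4.3.3) was fitted to all 35 arrays with a coefficient per group, naïve replicates 1 to 3 and 4 to 5 apart, which equals adding the array set as a term (22 residual degrees of freedom). Calls used the thresholds of the paper's methods: a p adjusted within the comparison (Benjamini-Hochberg) under 0.01, B above 0 and 1.2-fold. Intervals are 95%, from the moderated t distribution. The fit was tested on simulated data. The receptor genes, lists and alternatives were chosen with earlier results of these data known. Named were receptor genes called with or without IONC 12 h replicate 2, the gene of each family with the largest absolute mean change, Grm6, Gabrr1, Gabrr2, Glra1 and Grin1, and up to 6 called genes of other lists. The rest are given by ranges, and calls on the other 32 probe sets of receptor genes were added after the data were seen. Replicate numbers did not pair the samples (median correlation of deviations 0.029 for the same number over 108 pairs and −0.016 for other numbers over 216), so no block was used. Alternatives were all naïve arrays as 1 group, each set fitted alone, each array left out, the replicate block, array weights, median centring, cyclic loess, only probe sets above 4, an adjusted p under 0.05 alone, and averaging the probe sets of a gene.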

Additional observations from a re-analysis of the deposited data

Results flagged for a closer look

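Of the 14 receptor genes named by the rule, Grin1 alone had a naïve array far from the other 4. Naïve replicate 4 read 5.97 and the others 6.69 to 6.93, a gap of 0.753 of the group's whole range. These 5 arrays span both array sets, whose naïve Grin1 signals did not overlap, so the gap includes the difference between the sets. Chance alone gives such a gap in about 1 of 20 groups, and 14 genes were examined, so nothing is read from it. This array is 1 of the 2 naïve arrays behind the Grin1 values at IONT 24 h, 3 d and 15 d, which were not called.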

How the results depend on the processing

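For the named genes, 6701 values under alternatives were compared with those reported. No called value changed sign, 43 were no longer called and 34 became called. Among values that were not called, 109 changed sign. Leaving out 1 array at a time gave 0 to 2 calls at IONC 48 h, 0 to 1 at IONT 48 h, 3 d, 7 d and 15 d and at IONC 12 h and 7 d, and 0 to 0 elsewhere, the 5 lesion differences included. The 1 at IONT 3 d was Grm2 without IONT 3 d replicate 1 (1.36), and the 1 at IONT 48 h was Grm5 without naïve replicate 1, both chosen after their values were seen. Grm2 at IONT 15 d kept its call in 15 of 43 alternatives (change 1.11 to 1.72, adjusted p 7.18e-05 to 0.248), Grin2a at IONC 48 h in 36 of 44 (−2.49 to −0.67, 0.000311 to 0.294; also lost without IONC 48 h replicate 2) and Gria2 there in 37 of 44 (−1.54 to −0.75, 0.000897 to 0.0693). With all naïve arrays as 1 group, 1 gene was called at IONT 48 h, 1 at IONC 12 h, 1 at IONC 48 h and 1 in the lesion difference at 24 h and 1 at 3 d, Gria2 in each. Fitting each set alone gave 0 at IONT 15 d and 0 at IONC 48 h. Array weights, which gave IONC 12 h replicate 2 a weight of 0.00232, called 1 at IONT 48 h, 3 at IONT 7 d, 6 at IONC 12 h, 3 at IONC 24 h, 2 at IONC 3 d, 2 at IONC 7 d, and 2 in the lesion difference at 12 h and 2 at 7 d. An adjusted p under 0.05 alone gave 1 at IONT 7 d, 3 at IONT 15 d, 2 at IONC 12 h and 1 at IONC 7 d. Median centring, which shifts every change at IONT 15 d by −0.21, gave 4 there, all lower and without Grm2. Cyclic loess gave 1 at IONT 7 d, 0 at IONT 15 d, 1 at IONC 48 h and 1 at IONC 7 d. Only probe sets above 4 gave 1 at IONT 7 d and 1 at IONC 7 d, and averaging the probe sets of a gene gave 2 at IONT 15 d and 1 at IONC 48 h. The replicate block, which could be fitted only without naïve replicates 4 and 5, gave 1 at IONT 7 d (Grin2a) and changed no other call it could test. Of the calls on dimmer probe sets, examined after the data were seen, that of Gabrd at IONT 15 d was kept in 39 of 42 alternatives (lost without naïve replicate 4 or IONT 15 d replicate 1), that of Gabrb2 at IONC 48 h in 37 of 43 (lost without naïve replicate 2 or 3 or IONC 48 h replicate 1 or 2) and that of Gabbr1 at IONT 15 d in 14 of 41, with the same sign throughout. The causes were not tested.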
